A study of Mus musculus with 19 samples.

Results

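Mast cells are granulated immune cells of the dermis, and 10 genes that mark them were followed in skin with early basal cell carcinoma (BCC). The genes were taken by name from the count table, which lists 18521 gene symbols. All 10 are in it and all 10 passed the filter on low counts that 15760 symbols passed. They are the tryptase genes Tpsab1 and Tpsb2, the chymase genes Cma1 and Mcpt4, the carboxypeptidase gene Cpa3, the histidine decarboxylase gene Hdc, the IgE receptor genes Fcer1a and Ms4a2, the stem cell factor receptor gene Kit and the interleukin 33 receptor gene Il1rl1.

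Poly-A RNA was sequenced from skin of 16 female mice, which all carried Ptch1+/-, K14-CreER2 and p53fl/fl, so that every group carries a single working Ptch1 allele and floxed Trp53 alleles, with a Cre that tamoxifen switches on where keratin 14 is expressed. Healthy skin came from 5 mice aged 128 to 137 days that were not induced. Early BCC was induced in the other 11 mice, now aged 228 to 326 days, with tamoxifen (300 µg, injected 3 times) and x-rays (4 Gy), 80 to 144 days before. Of these, 4 mice were left untreated (the BCC group), 3 had 1 pass of an ablative fractional laser (AFL), which burns narrow columns into the skin, at 5% density and 40 mJ per microbeam, and 4 had 8 applications of vismodegib, a drug that blocks the Hedgehog pathway protein Smoothened. Skin was taken on day 4. No mouse had a sham laser or a vehicle, and age and induction changed together between healthy and induced skin, so that the effects of both cannot be told apart.

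Trp53, the floxed gene, had 119 ± 17.8 CPM (counts scaled to a common library size, mean ± SD, n = 5) in healthy skin and 29.8 ± 5.40 CPM (n = 4) in BCC skin, with 38.9 ± 6.84 CPM (n = 3) after AFL and 40.1 ± 16.3 CPM (n = 4) after vismodegib. Every induced mouse lay below every healthy mouse. Library totals lay between 27185921 and 33556611 counts, and 3 mice (healthy mouse 16, AFL mouse 11 and vismodegib mouse 12) had 2 libraries each, which were summed. Between the 2 libraries of a mouse the members' CPM differed by 1.02 to 1.70 times. In whole skin, fewer cells of a type and less RNA per cell cannot be told apart, and that holds for every result here.

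As background, mast cells settle in the skin as progenitors, mature there under stem cell factor, the ligand of Kit, and fill their granules with histamine and proteases bound to heparin. An antigen that crosslinks IgE on the receptor FcεRI makes them release the granules. Interleukin 33, an alarm signal from damaged keratinocytes and stroma, acts on them through the receptor that Il1rl1 encodes. Connective tissue mast cells, the kind in skin, are known for chymases, tryptases and Cpa3, while mucosal mast cells make Mcpt1 and Mcpt2.

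Mast cell genes are known targets of the transcription factor GATA2, and the promoters of 4 members that rose in one of the comparisons are shown with the letters such factors read. The 250 bases before the gene start were taken from the RefSeq table of GRCm38.p6, which holds 8 of the 10 members in 10 rows; Tpsab1 and Tpsb2 are named here without a sequence. The motif AGATAA was searched on both strands, and so were its variants TGATAA, ending in AA, and AGATAG or TGATAG, ending in AG. These can overlap, and matches stand in capitals. Of 32851 such windows, 26.5% hold at least 1 match, and 8 of the 10 rows of members, from 7 genes, do. Il1rl1 has 2 starts 10059 bases apart, and the one shown first, at chr1:40429320-40429569 on the plus strand, holds 5 matches, as many as 0.0426% of windows hold or exceed. The Hdc window is chr2:126618679-126618928, the Cma1 window chr14:55944676-55944925 and the Fcer1a window chr1:173227230-173227479, all on the minus strand.
Il1rl1 promoter: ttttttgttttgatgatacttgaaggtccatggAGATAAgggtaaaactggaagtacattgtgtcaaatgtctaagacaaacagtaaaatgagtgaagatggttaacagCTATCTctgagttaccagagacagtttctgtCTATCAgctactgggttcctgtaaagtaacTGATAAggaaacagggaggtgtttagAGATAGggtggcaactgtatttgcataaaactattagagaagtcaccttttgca
Hdc promoter: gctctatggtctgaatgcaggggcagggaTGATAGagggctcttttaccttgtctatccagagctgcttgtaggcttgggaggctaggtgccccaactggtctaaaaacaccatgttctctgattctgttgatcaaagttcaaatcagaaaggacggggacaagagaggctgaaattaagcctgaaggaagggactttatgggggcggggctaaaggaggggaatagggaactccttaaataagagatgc
Cma1 promoter: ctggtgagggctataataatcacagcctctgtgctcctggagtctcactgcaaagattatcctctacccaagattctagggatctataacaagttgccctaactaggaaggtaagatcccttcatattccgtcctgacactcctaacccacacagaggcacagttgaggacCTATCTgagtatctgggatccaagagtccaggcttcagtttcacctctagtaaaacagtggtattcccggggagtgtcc
Fcer1a promoter: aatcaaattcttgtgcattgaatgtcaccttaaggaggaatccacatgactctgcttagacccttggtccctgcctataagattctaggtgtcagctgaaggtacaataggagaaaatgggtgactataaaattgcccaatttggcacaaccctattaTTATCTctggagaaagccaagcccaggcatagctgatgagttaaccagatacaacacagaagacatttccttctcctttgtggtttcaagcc
Hdc, Cma1 and Fcer1a hold 1 match each, and so do Cpa3, Mcpt4 and the second start of Il1rl1. Ms4a2 holds 3 matches, a number that 1.35% of windows reach, and neither row of Kit holds one. A match is a string of letters and shows no binding, and the counts per gene do not separate the starts of Il1rl1.

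Compared per length, as CPM per kilobase of the longest coding transcript in the GENCODE annotation of GRCm38, the chymase Mcpt4 was the highest member in healthy skin at 112, followed by Cma1 at 71.1 and Cpa3 at 52.7. Tpsb2 stood at 22.3 and Kit at 11.4 CPM per kilobase. The lowest were Fcer1a at 0.566 and Tpsab1 at 0.316. The spread of single mice was wide, at 33.4 to 137 CPM for Cma1 and 54.9 to 230 CPM for Mcpt4, so that the order of these neighbours is a description of the means. Mcpt4, Cma1, Cpa3 and Tpsb2 are connective tissue type proteases, and the genes of the mucosal type were near 0: Mcpt1 had 9 counts and Mcpt2 had 5 over the 5 healthy mice together. In BCC they had 8 and 4 counts, after AFL 13 and 24, and after vismodegib 12 and 12.

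**Figure D1:**
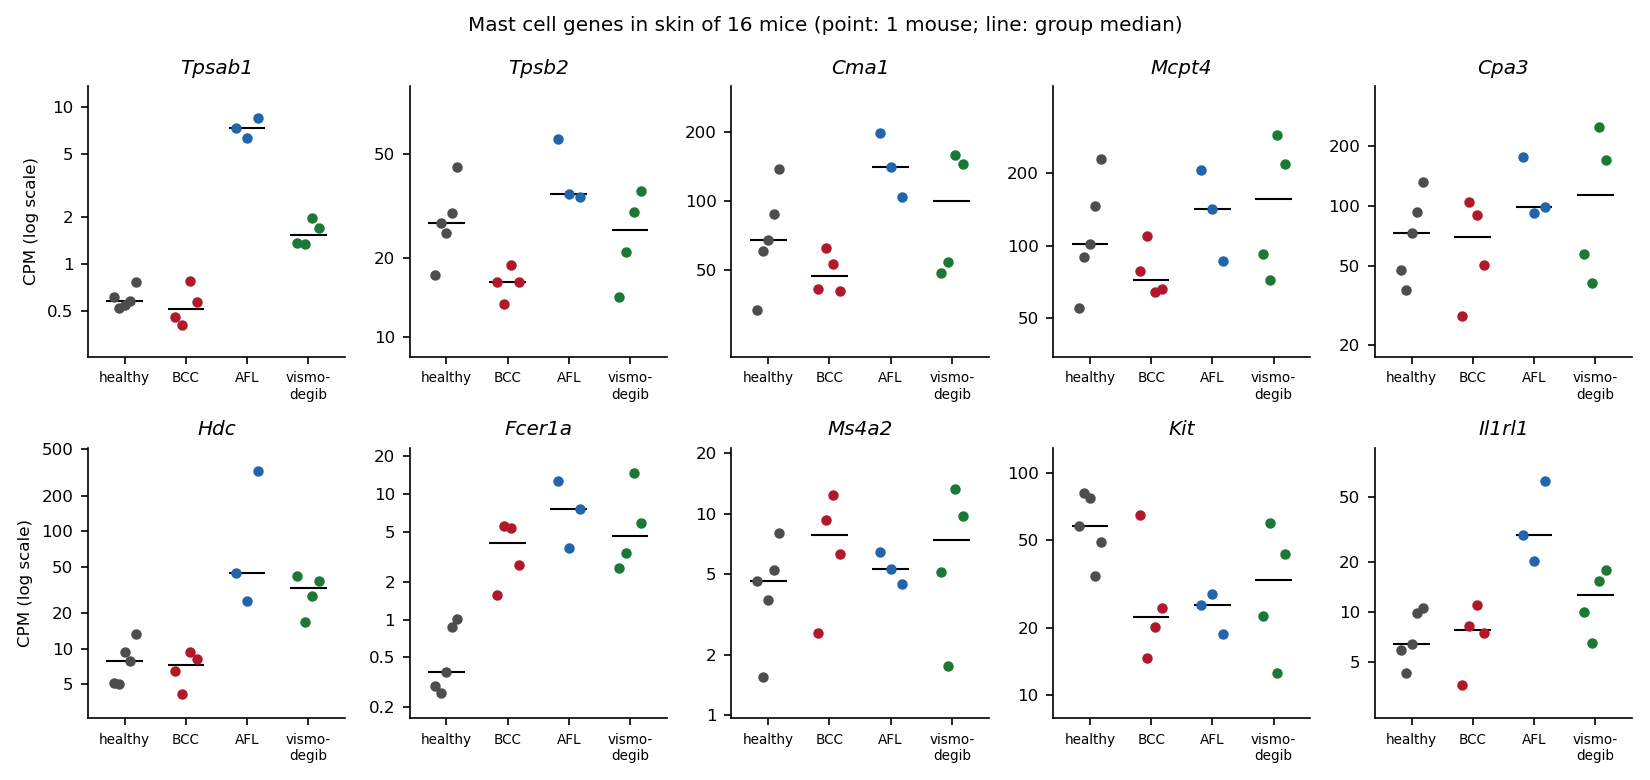
CPM of the 10 members (log scale, with a separate axis for each gene) in healthy, BCC, AFL and vismodegib skin; a point is 1 mouse and a line the group median. Tpsab1 separates the AFL mice (6.34 to 8.48 CPM) from every other mouse, while Ms4a2 and Kit overlap between BCC and both treatments.

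The first comparison asked how AFL changed BCC skin. Of the 10 members 5 rose, Tpsab1, Tpsb2, Cma1, Hdc and Il1rl1, and none fell (edgeR quasi-likelihood test, Benjamini-Hochberg adjusted p under 0.05 over all genes tested). Among all 15760 genes 6.10% rose and 1.65% fell. Those 5 members were also the ones with each AFL mouse above each BCC mouse, which held for 11.5% of all genes. The median log2 fold change was 1.23 over the members and -0.04 over all genes. The 2 members with a negative value were Ms4a2 and Kit.

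Tpsab1 encodes the granule tryptase mMCP-7. It had 0.463, 0.411, 0.777 and 0.572 CPM in the 4 BCC mice and 7.39, 6.34 and 8.48 CPM in the 3 AFL mice, so the groups lay far apart and the AFL mice close together. The rise was 13.3-fold (log2 fold change 3.73, SE 0.31, edgeR adjusted p = 9.41e-06). RefSeq lists Tpsab1 as a transcribed pseudogene in the C57BL/6J reference genome, where mMCP-7 is known not to be made as a protein; the genetic background of these mice beyond the engineered alleles is not given in the sources used here. In the GENCODE transcripts of that reference none of its 50-base words is shared with another gene, Tpsb2 included, while Cma1 shares 5.38% and Mcpt4 5.48% of theirs with other genes.

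Tpsb2 encodes mMCP-6, the tryptase held in granules by heparin. Its BCC mice had 16.1, 13.4, 18.7 and 16.2 CPM and its AFL mice 57.1, 35.3 and 34.4 CPM, again without overlap. It rose 2.62-fold (log2 fold change 1.39, SE 0.33, edgeR adjusted p = 0.0146). The call rested on AFL mouse 2, the highest: without it the log2 fold change was 1.12 and the adjusted p 0.0795. With days since induction as a covariate the value was 1.66 and the adjusted p 0.0571. The AFL mice had fewer days since induction (80 to 126) than the BCC mice (130 to 144). Summed into 1 row, the 2 tryptases rose by 1.57 (adjusted p = 0.0051).

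Both chymase genes sit in the same protease family, and 1 of them passed. Cma1, which encodes mMCP-5, a chymase that in the mouse cuts like an elastase, had 41.5, 62.6, 52.9 and 40.3 CPM in BCC and 199, 141 and 104 CPM after AFL, a 2.99-fold rise (log2 fold change 1.58, SE 0.46, edgeR adjusted p = 0.0443). That call sat at the threshold and was lost under 14 of 28 alternatives, with values of 1.15 to 1.90 and adjusted p up to 0.158; among them were the runs without any single AFL or BCC mouse and without healthy mouse 13, 14 or 15, which gave 1.31 to 1.74. Mcpt4, which encodes mMCP-4, a chymase that cuts after aromatic residues, overlapped between the groups, with 77.9, 110, 64.1 and 66.2 CPM in BCC and 208, 143 and 86.0 CPM after AFL, and did not pass (log2 fold change 0.87, SE 0.49, edgeR adjusted p = 0.342). Cpa3, whose enzyme trims peptides from the C-terminal end and is stored with mMCP-5, was in the same position, with 27.9 to 104 CPM in BCC and 91.7 to 175 CPM after AFL (log2 fold change 0.84, SE 0.58, edgeR adjusted p = 0.452).

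Hdc encodes the enzyme that makes histamine from histidine. It had 6.52, 4.09, 9.39 and 8.12 CPM in BCC skin and 43.9, 25.4 and 323 CPM after AFL, so that all AFL mice were higher and mouse 11 was far above the other two. The rise was 18.6-fold (log2 fold change 4.22, SE 0.69, edgeR adjusted p = 0.00103), and without mouse 11 it was 4.81-fold (2.27, adjusted p = 0.00577). It was 11.3-fold with limma voom and 28.8-fold with days since induction as a covariate, and passed in both. Both libraries of mouse 11 held the high level, at 336 and 321 CPM.

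Hdc is known to be expressed by neutrophils and other myeloid cells as well as mast cells, and markers of those cells are set beside it here. Of 10 neutrophil and macrophage markers 7 rose after AFL, where 6.10% of all genes rose, and none fell. Their median log2 fold change was 3.58. Their summed level was 135 to 273 CPM in BCC and 1194 to 3369 CPM after AFL. Csf3r, the receptor of granulocyte colony-stimulating factor on neutrophils, had 187 CPM in mouse 11 and 43.0 and 30.2 CPM in AFL mice 2 and 7, in the same order as Hdc. The macrophage markers Cd68 (313 to 361 CPM) and Csf1r (335 to 360 CPM) varied little between the AFL mice. Ly6g, a defining neutrophil marker, had no count in any healthy or BCC mouse. After AFL it had 0.0305 to 1.86 CPM and did not pass (edgeR adjusted p = 0.0652). S100a8 and S100a9 did not pass either (edgeR adjusted p = 0.146 and 0.0882). The part of these cells in the Hdc result was not tested.

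Il1rl1 encodes ST2, the interleukin 33 receptor. It had 3.62, 8.17, 11.0 and 7.47 CPM in BCC and 29.3, 20.5 and 62.1 CPM after AFL, with mouse 11 highest once more. It rose 4.93-fold (log2 fold change 2.30, SE 0.46, edgeR adjusted p = 0.00488), and without mouse 11 the value was 1.68 and the adjusted p 0.0546. With days since induction as a covariate the rise was 8.20-fold and passed. ST2 is also found on group 2 innate lymphoid cells and regulatory T cells. Of 9 markers of those cells that were tested none passed in either direction, their median log2 fold change was -0.24, and their summed level was 181 to 381 CPM in BCC and 160 to 260 CPM after AFL. Most of that sum was Gata3 and Rora (means of 129 and 101 CPM in BCC), which other skin cells are also known to express, while Il13 (0.381 CPM) and Klrg1 (1.23 CPM) were low. The part of these cells in the Il1rl1 result was not tested.

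Neither of the 2 members that encode chains of the IgE receptor passed after AFL. Fcer1g, the gene of its γ chain, is not a member and rose, as given below. Fcer1a, the ligand-binding α chain, had 1.56, 5.56, 5.41 and 2.72 CPM in BCC and 12.7, 3.72 and 7.65 CPM after AFL and did not pass (log2 fold change 1.07, SE 0.64, edgeR adjusted p = 0.37). Ms4a2, the β chain that amplifies the signal, had 2.55, 9.32, 12.4 and 6.35 CPM in BCC and 6.44, 5.31 and 4.47 CPM after AFL, all within the range of the BCC mice (log2 fold change -0.50, SE 0.62, edgeR adjusted p = 0.72). Kit, at 64.9, 14.6, 20.3 and 24.7 CPM in BCC and 25.5, 28.4 and 18.8 CPM after AFL, also stayed within that range (log2 fold change -0.36, SE 0.52, edgeR adjusted p = 0.764), and its sign turned without BCC mouse 3 (0.28) and with the hair score as a covariate (0.40).

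**Figure D2:**
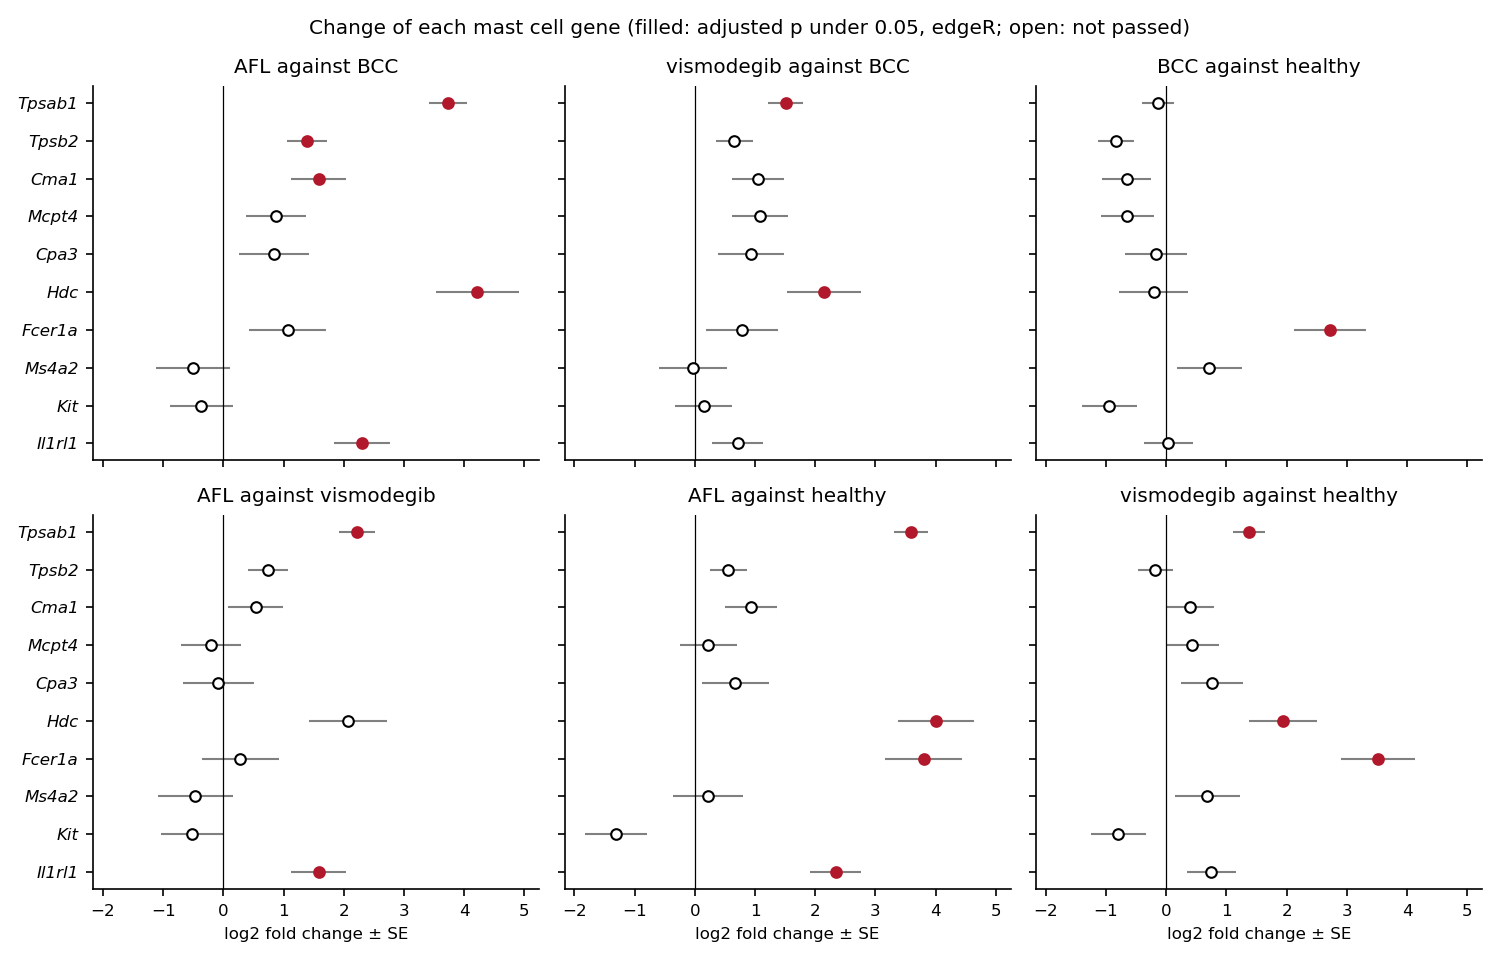
Log2 fold change with its SE for each member in the 6 comparisons, where the x axis is positive for a higher level in the first group named; filled points passed an adjusted p of 0.05. Tpsab1 passed in 5 comparisons and Hdc in 4, Mcpt4, Cpa3, Ms4a2 and Kit in none.

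The next comparison asked how vismodegib changed BCC skin; it shares its BCC mice with the AFL comparison. Only Tpsab1 and Hdc of the 10 members rose and none fell, where 8.03% of all genes rose and 9.00% fell. Both had each vismodegib mouse above each BCC mouse, which held for 7.63% of all genes. The members' median log2 fold change was 0.86 and that of all genes 0.05.

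Tpsab1 had 1.37, 1.34, 1.96 and 1.70 CPM in the vismodegib mice, a narrow band above BCC and well below AFL. It rose 2.85-fold over BCC (log2 fold change 1.51, SE 0.29, edgeR adjusted p = 0.00292). When its counts were summed with those of Tpsb2, which had 14.2, 21.1, 30.1 and 36.0 CPM, the tryptase row did not pass (0.69, adjusted p = 0.117).

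Hdc had 41.5, 16.9, 28.1 and 38.0 CPM after vismodegib and rose 4.43-fold over BCC (log2 fold change 2.15, SE 0.62, edgeR adjusted p = 0.028). The call was lost with library size alone as the scaling (1.78, adjusted p = 0.0653) and without BCC mouse 3, 4 or 8 or vismodegib mouse 1, 9 or 12 (1.96 to 2.21, adjusted p 0.0504 to 0.0756). Of the 10 neutrophil and macrophage markers 8 rose here, where 8.03% of all genes rose, and none fell. The macrophage markers Adgre1 (0.55, edgeR adjusted p = 0.207) and Csf1r (0.42, edgeR adjusted p = 0.316) did not pass. The sum of the 10 markers was 2603 to 49607 CPM, against 135 to 273 CPM in BCC. It was mostly S100a8 and S100a9 (means of 7141 and 8093 CPM), which keratinocytes are also known to express. Csf3r stood at 34.7 to 137 CPM in the vismodegib mice. The order of the mice by Csf3r was not their order by Hdc, since mouse 1 had the most Hdc and mouse 12 the most Csf3r. The part of these cells in the result was not tested.

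The chymases and Cpa3 fell into a pair of high and a pair of low mice after vismodegib. Cma1 had 48.6, 54.1, 159 and 145 CPM, Mcpt4 91.9, 71.5, 290 and 220 CPM, and Cpa3 57.1, 40.8, 249 and 170 CPM, in mice 1, 6, 9 and 12. For each gene mice 1 and 6 lay at the level of BCC and mice 9 and 12 above every BCC mouse. None of the 3 passed (edgeR adjusted p = 0.102, 0.119 and 0.255). Without vismodegib mouse 6, Cma1 (1.26, adjusted p = 0.0493) and Mcpt4 (1.34, adjusted p = 0.0468) passed. Il1rl1, at 6.45 to 17.9 CPM (0.71, adjusted p = 0.258), Fcer1a, at 2.56 to 14.7 CPM (0.79, adjusted p = 0.388), Ms4a2, at 1.77 to 13.3 CPM (-0.03, adjusted p = 0.976), and Kit, at 12.5 to 59.6 CPM (0.15, adjusted p = 0.862), overlapped with BCC.

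Set against each other directly, AFL skin had more of 2 members than vismodegib skin, Tpsab1 and Il1rl1, and less of none. Of all genes 6.69% were higher after AFL and 2.46% lower. Tpsab1 was 4.65-fold higher (log2 fold change 2.22, SE 0.30, edgeR adjusted p = 0.000324). Every AFL mouse lay above every vismodegib mouse, and the share of all genes with that separation was not counted. Il1rl1 was 3.00-fold higher (1.59, SE 0.45, edgeR adjusted p = 0.04) and lost the call without AFL mouse 2 or 11, vismodegib mouse 1 or 6 or BCC mouse 4 (1.02 to 1.79, adjusted p 0.0501 to 0.22). Hdc did not pass (2.07, SE 0.64, edgeR adjusted p = 0.0545). It passed without AFL mouse 2 (2.55, adjusted p = 0.0355) or mouse 7 (2.56, adjusted p = 0.0166), and the value was 0.17 without mouse 11. It also passed with DESeq2 (2.07, adjusted p = 0.0128), with library size alone (2.26, adjusted p = 0.0419), when genes needed 1 CPM in 3 or more mice (2.12, adjusted p = 0.0493) and with the libraries as replicates (2.52, adjusted p = 0.00628), which enters mouse 11 as 2 samples.

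Between BCC and healthy skin 1 member, Fcer1a, rose and none fell, where 2.66% of all genes rose and 0.159% fell. Fcer1a had 0.296, 0.262, 0.386, 0.868 and 1.01 CPM in healthy mice and was higher in all 4 BCC mice (1.56 to 5.56 CPM), a separation that 5.18% of all genes had. It rose 6.62-fold (log2 fold change 2.73, SE 0.60, edgeR adjusted p = 0.0179). The healthy level rests on 9 to 70 counts per mouse, which limits this fold change. Leaving out either of healthy mice 13 and 14, or either of BCC mice 4 and 5, lost the call (2.49 to 2.62, adjusted p 0.0562 to 0.0698). The value fell to 2.02 with the hair score as a covariate. Its partner Ms4a2 had 4.64, 1.55, 3.75, 5.24 and 8.01 CPM in healthy skin, overlapping with BCC (0.72, SE 0.54, edgeR adjusted p = 0.593). Tpsb2, Cma1 and Mcpt4 had values of -0.83, -0.65 and -0.65 with overlap between the groups and did not pass (edgeR adjusted p = 0.181, 0.512 and 0.557), and the median over the members was -0.19.

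Both treated groups also stood above healthy skin for part of the members. After AFL 4 members were higher than in healthy skin, Tpsab1 (3.59), Hdc (4.01), Fcer1a (3.799) and Il1rl1 (2.34), as 7.95% of all genes were, and none was lower, as 1.29% of all genes were (edgeR). Without AFL mouse 11, Hdc stood at 2.05 and Il1rl1 at 1.71 and both passed. With the hair score as a covariate Fcer1a was 2.76 and Il1rl1 1.74, and with limma voom Hdc was 3.30, all of which passed. The summed tryptase row was 0.76 and did not pass (adjusted p = 0.126). After vismodegib 3 were higher, Tpsab1 (1.37), Hdc (1.94) and Fcer1a (3.52), as were 7.57% of all genes, and none was lower, with 4.07% of all genes lower. Fcer1a was 2.78 without vismodegib mouse 9 and 2.67 with the hair score as a covariate and passed in both. Hdc against healthy skin (edgeR adjusted p = 0.0383) lost the call under 11 of 27 alternatives, among them those that left out 1 of healthy mice 10, 13, 14 and 15, BCC mouse 8, or 1 of vismodegib mice 1, 9 and 12 (1.75 to 1.98, adjusted p 0.0561 to 0.0835). These comparisons share the healthy mice, and the 2 treated groups were each measured against them.

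Ratios of counts within a mouse do not depend on the scaling between libraries and showed which members moved apart. Tpsab1 counts were 1.72 to 3.61% of Tpsb2 counts in healthy mice, 2.87 to 4.15% in BCC, 12.9 to 24.7% after AFL and 4.71 to 9.62% after vismodegib. Each treated mouse thus had a larger share of Tpsab1 than each mouse of the other two groups. For the chymases, the AFL mice had 1.05, 1.02 and 0.83 Mcpt4 counts per Cma1 count, below every other mouse (1.21 to 1.89).

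Fcer1a was the smaller partner of Ms4a2 in healthy skin, at 6.37 to 17.0% of its counts. The share was 42.9 to 61.4% in BCC, 70.1 to 197% after AFL and 50 to 193% after vismodegib, so every induced mouse lay above every healthy mouse. Hdc was 8.40 to 13.3% of Cpa3 counts in healthy mice and 3.93 to 23.4% in BCC. After AFL it was 25.0, 27.7 and 327%, and after vismodegib 11.3 to 72.8%, which overlaps with BCC. These ratios are given as measured, with no test.

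**Figure D3:**
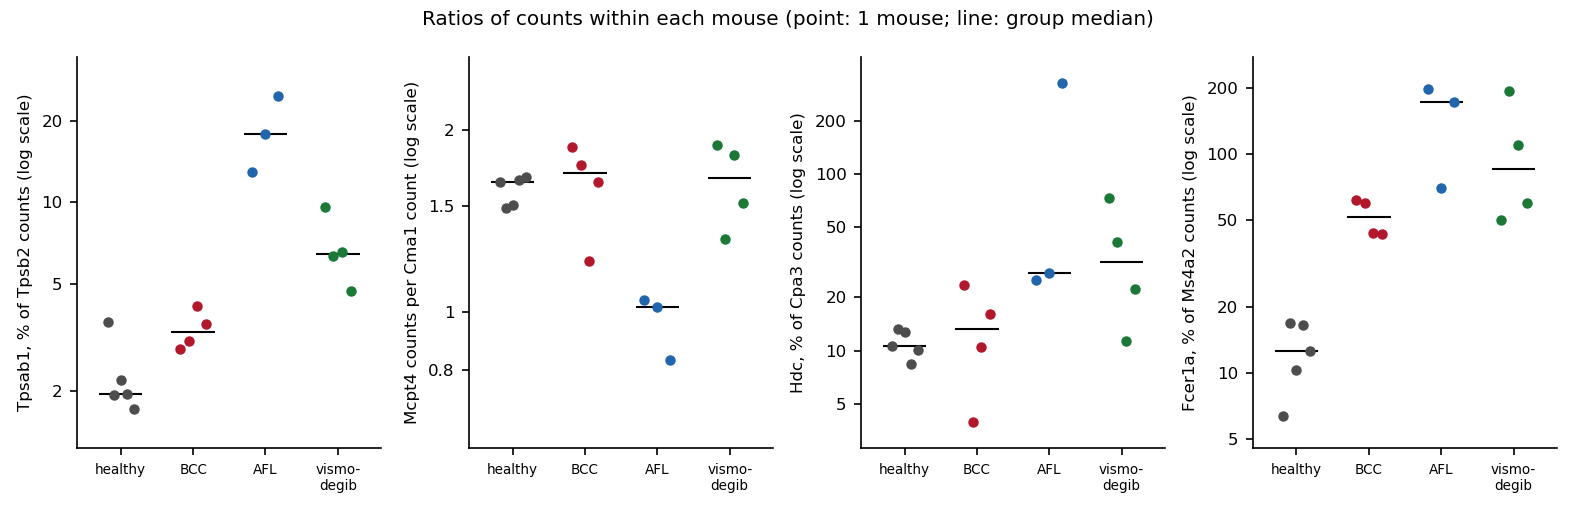
Ratios of raw counts of 2 members within each mouse, on log scales; a point is 1 mouse and a line the group median. The AFL mice are highest for Tpsab1 as a percent of Tpsb2 (12.9 to 24.7%) and lowest for Mcpt4 per Cma1 (0.83 to 1.05).

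Within groups some members varied together from mouse to mouse and others did not, as Tpsab1 and Mcpt4 (correlation 0.26) or Cma1 and Hdc (0.04). Taking log2 CPM as a deviation from the group mean over the 16 mice, Cma1 and Mcpt4 had a correlation of 0.96, Cpa3 and Fcer1a of 0.91, and Cpa3 and Ms4a2 of 0.91. Each protease was then set against the mean deviation of the other protease members, itself left out. The correlation was 0.96 for Cma1, 0.88 for Mcpt4 and 0.46 for Tpsab1. Members that are not proteases were set against the mean deviation of all 5 proteases. They had 0.86 for Fcer1a, 0.76 for Ms4a2, 0.61 for Il1rl1, 0.13 for Hdc and -0.45 for Kit. The 5 genes outside the members with the highest correlation, of 14279 with a mean of at least 1 CPM, were Ccdc69 (0.925), Ccl11 (0.922), Spock1 (0.921), Gbp2 (0.92) and Ifi27l2a (0.919). Ccl11 encodes eotaxin, which attracts eosinophils. The mice share library depth and tissue makeup in these correlations, which are descriptions without a test.

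Kit is also known as a receptor that melanocytes depend on, and its levels are set here beside the genes of melanocytes and of growing hair. The 5 mice with the highest mean of 14 growing hair genes, healthy mice 10, 13 and 14, BCC mouse 3 and vismodegib mouse 6, were the 5 with the most Kit, at 57.9, 81.6, 77.6, 64.9 and 59.6 CPM. The other 11 mice had 12.5 to 48.8 CPM. Melanocyte markers summed to 862 to 1671 CPM in those 5 mice and 12.9 to 283 CPM in the rest. The part of these cells in the levels of Kit was not tested. Against healthy skin the log2 fold change of Kit was -0.95 in BCC skin, -1.31 in AFL skin and -0.80 in vismodegib skin; none passed (edgeR adjusted p = 0.372, 0.127 and 0.242). Each AFL mouse lay below each healthy mouse, and the share of all genes that did so was not counted. With the libraries as replicates, which enters mice 11 and 16 as 2 samples each, the AFL value passed (-1.36, edgeR adjusted p = 0.0355). With the hair score as a covariate the 3 values became -0.48, -0.08 and -0.08. Without BCC mouse 3 the BCC value was -1.59 and passed (adjusted p = 0.0494).

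**Figure D4:**
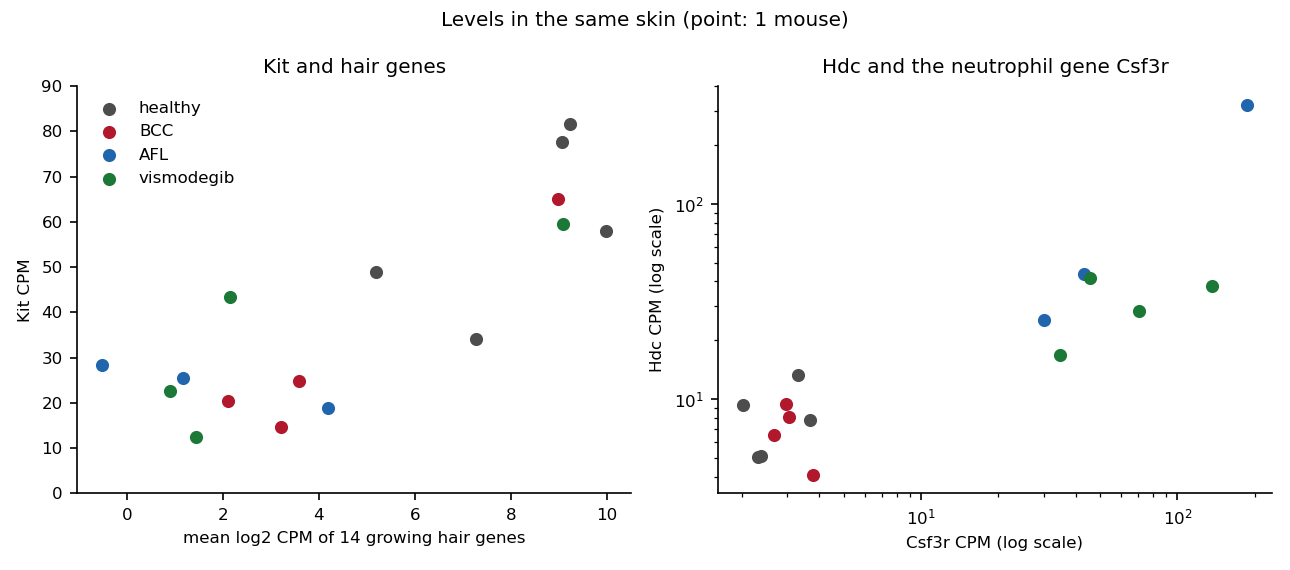
Left: Kit CPM against the mean log2 CPM of 14 growing hair genes. Right: Hdc CPM against Csf3r CPM, both on log scales. A point is 1 mouse, coloured by group. The 5 mice with the highest hair score have 57.9 to 81.6 Kit CPM, and AFL mouse 11 has the most Hdc (323 CPM) and the most Csf3r (187 CPM).

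Of 18 further mast cell genes 3 rose after AFL, where 6.10% of all genes rose. None fell, and the median log2 fold change over the list was 0.30. The 3 were Gpr35, a G protein-coupled receptor (2.58, SE 0.41, edgeR adjusted p = 0.000728), Milr1, the inhibitory receptor allergin-1 (3.25, SE 0.62, edgeR adjusted p = 0.00316), and Srgn, serglycin, the core of granule proteoglycan that many blood cells make (3.47, SE 0.86, edgeR adjusted p = 0.0205). The same 3 rose after vismodegib, measured against the same BCC mice, with a median of 0.39 over the list. There 8.03% of all genes rose. The part of cells other than mast cells in these 3 genes was not tested. Mrgprb2, the receptor that defines connective tissue mast cells of mouse skin, had 1.80 to 16.4 CPM in BCC and 4.82 to 11.3 CPM after AFL and did not pass (-0.05, adjusted p = 0.983). Gata2 had 7.58 to 13.4 CPM in BCC and 8.55 to 17.5 CPM after AFL (0.27, adjusted p = 0.783).

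Of 14 genes of IgE receptor signalling, which include the receptor's own γ chain gene Fcer1g, 8 rose after AFL and none fell. Their median was 1.89, and of all genes 6.10% rose. Syk, the kinase that the receptor recruits, rose by 2.55 (SE 0.27, edgeR adjusted p = 4.68e-05), Lyn, the kinase that phosphorylates the receptor, by 2.71 (SE 0.30, edgeR adjusted p = 6.92e-05) and Vav1, an exchange factor, by 1.95 (SE 0.31, edgeR adjusted p = 0.000783). Fcer1g, the γ chain shared with the Fc receptors of macrophages, rose by 3.16 from 6.78 to 14.6 CPM in BCC to 79.2 to 123 CPM after AFL (adjusted p = 0.00157). Lat, Plcg1 and Plcg2 did not pass (-0.11, -0.46 and -0.0050). Neutrophils and macrophages also express most of these 8 genes, and markers of those cells are given above. The part of those cells in this result was not tested. After vismodegib 4 of the 14 rose and 1, Fyn, fell (-0.89, SE 0.17, edgeR adjusted p = 0.00313). There 8.03% of all genes rose and 9.00% fell.

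Ligands and growth factors were read from the lists of the IL-33 axis and of Kit ligand. Il33 had 5.97 to 36.7 CPM in BCC, 56.3 to 172 CPM after AFL and 105 to 365 CPM after vismodegib. It rose by 2.08 after AFL (SE 0.59, edgeR adjusted p = 0.041) and by 3.37 after vismodegib (SE 0.59, edgeR adjusted p = 0.00195). Of 11 tested genes of the axis 3 rose after AFL (Crlf2, Il33 and Myd88) and 3 after vismodegib (Il33, Myd88 and Areg), and none fell. For this list and the next, the share of all genes that rose was 6.10% after AFL and 8.03% after vismodegib. Kitl, the ligand of Kit, did not pass (0.25 after AFL, adjusted p = 0.807; 0.18 after vismodegib, adjusted p = 0.789). Of the 8 tested genes of its list 4 rose after AFL: Il10, a cytokine that dampens inflammation, with the largest value (3.24, SE 0.75, edgeR adjusted p = 0.0124), Csf2rb, the shared receptor chain for interleukin 3 and GM-CSF (2.09, SE 0.39, edgeR adjusted p = 0.00306), Il3ra (1.48, adjusted p = 0.00995) and Csf2rb2 (1.78, adjusted p = 0.0117). After vismodegib Csf2rb and Csf2rb2 rose; these 2 are near-identical copies whose reads the counting may split between them.

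**Figure D5:**
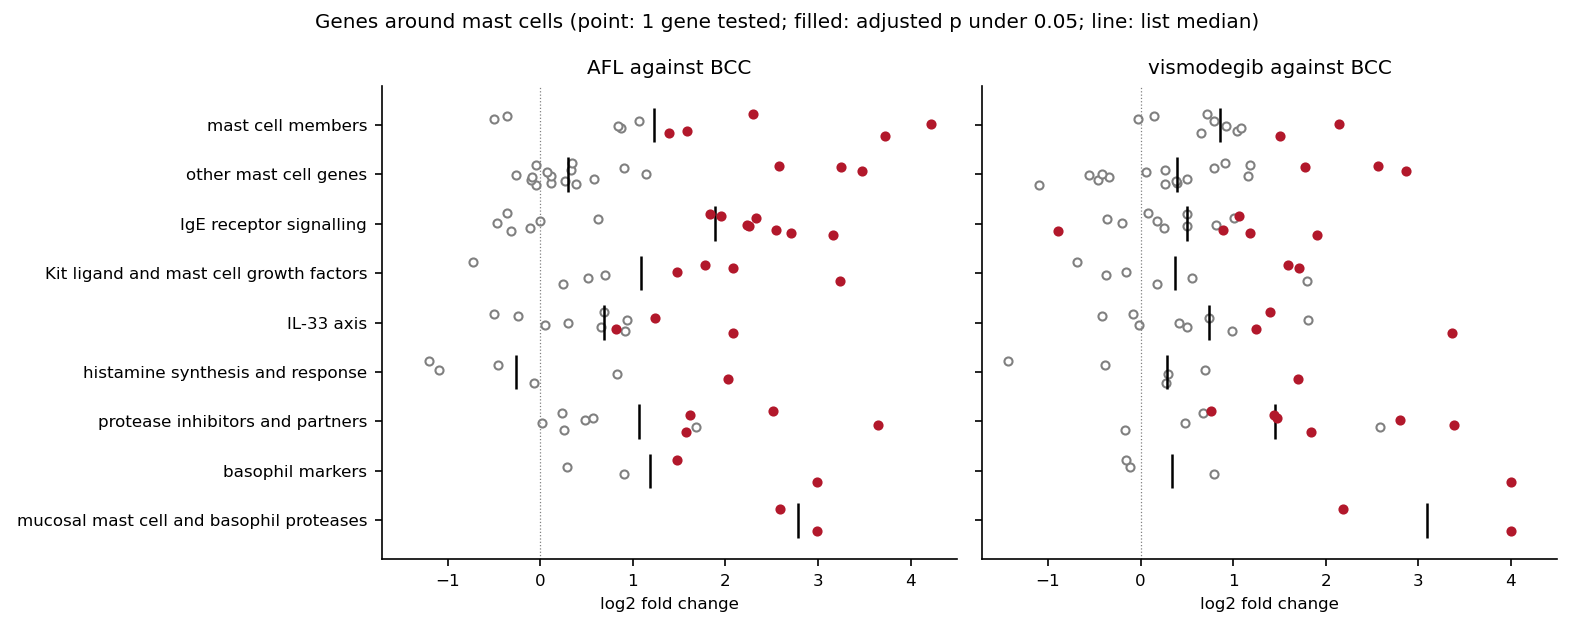
Log2 fold changes of the members and of 8 related gene lists after AFL (left) and vismodegib (right), both against the same 4 BCC mice; a point is 1 gene that was tested, filled where its adjusted p was under 0.05, and a line is the list's median. After AFL the median of the members is 1.23, that of the 18 other mast cell genes 0.30, and the IgE receptor signalling list has a median of 1.89.

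Histamine receptors and enzymes that clear histamine showed 1 change. Hrh2, the H2 receptor, rose by 2.03 after AFL (SE 0.49, edgeR adjusted p = 0.0164) and by 1.71 after vismodegib (SE 0.47, edgeR adjusted p = 0.0219), from 0.265 to 0.560 CPM in BCC to 1.403 to 2.31 CPM and 0.761 to 2.19 CPM. The other 5 of 6 tested genes passed in neither comparison. Among inhibitors and partners of the proteases 4 of 10 rose after AFL and 6 after vismodegib, and none fell. Of all genes 6.10% rose after AFL and 8.03% after vismodegib. Timp1, an inhibitor of matrix metalloproteases, rose by 3.64 after AFL (SE 0.76, edgeR adjusted p = 0.00686) and by 3.38 after vismodegib (SE 0.73, edgeR adjusted p = 0.00655). Ctsc, the cathepsin that activates granule chymases by removing a dipeptide, rose by 1.61 after AFL (SE 0.31, edgeR adjusted p = 0.00357) and by 1.45 after vismodegib (SE 0.29, edgeR adjusted p = 0.00442). Serpina3n, a serine protease inhibitor, rose by 1.57 (SE 0.34, edgeR adjusted p = 0.00759) and 1.84 (SE 0.32, edgeR adjusted p = 0.0018), and Ctsl, a lysosomal cathepsin, by 2.51 (SE 0.24, edgeR adjusted p = 1.97e-05) and 0.76 (SE 0.22, edgeR adjusted p = 0.026).

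Basophils share Fcer1a, Ms4a2, Hdc and Il1rl1 with mast cells. Mcpt8, their defining protease, had 8 counts over the 4 BCC mice, 65 over the 3 AFL mice and 132 over the 4 vismodegib mice, and rose after AFL (2.98, SE 0.75, edgeR adjusted p = 0.0209) and vismodegib (4.00, SE 0.73, edgeR adjusted p = 0.00231). At 0.480 and 0.987 CPM on average it remained low. Of 6 proteases listed for mucosal mast cells and basophils only Mcpt8 and Gzmb, granzyme B, had enough counts to be tested. Both rose after each treatment, and Mcpt1 and Mcpt2 had the few counts given above. The part of cells other than mast cells and basophils in the Gzmb result was not tested. Prss34, the other defining basophil protease, had no count in BCC, 4 counts after AFL and 1 after vismodegib. Over the 6 basophil markers the summed level was 11.7 to 25.8 CPM in BCC, 22.4 to 36.1 CPM after AFL and 14.8 to 20.01 CPM after vismodegib; it was nearly all Itga2 (means of 13.1 CPM in BCC and 16.0 CPM after AFL) and Il3ra, and Cd200r3, like Mcpt8, had means under 1 CPM. Of 8 dendritic and Langerhans cell markers Clec10a, Siglech and Itgax rose and Epcam fell after AFL, and Siglech and Clec10a rose after vismodegib. Of all genes 6.10% rose and 1.65% fell after AFL, and 8.03% rose and 9.00% fell after vismodegib. Epcam had means of 293 CPM in BCC and 169 CPM after AFL. Cd207 had 23.0 and 11.7 CPM and did not pass (-0.98, edgeR adjusted p = 0.262). The part of other skin cells in these markers was not tested. Nor was the part of basophils, dendritic and Langerhans cells in the members' results. Markers of melanocytes, growing hair, keratinocytes and dermal fibroblasts passed in neither direction after AFL, with medians of -4.20, -4.12, 0.21 and 0.60. For melanocytes and hair BCC mouse 3 stood far above the rest of its group: its melanocyte markers summed to 1199 CPM, those of the other BCC mice to 12.9 to 18.9 CPM and those of the AFL mice to 15.4 to 22.5 CPM. After vismodegib Krt14, Krt1 and Dsg3 rose among 8 keratinocyte markers, and Col1a1 and Col1a2 fell among 8 fibroblast markers. Between BCC and healthy skin 1 gene of all 15 lists passed, the protease inhibitor gene Slpi, which rose by 3.36 (SE 0.83, edgeR adjusted p = 0.0391).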

How the data were processed

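The authors deposited estimated counts per gene (RSEM expected counts, not normalized, 3.42% of values not whole) for 19 libraries, made with Bowtie2 and RSEM on GRCm39 per the submitters' processing notes; the sources used here give no versions, annotation or strand setting. Values were rounded, libraries of 1 mouse were summed, and all 16 mice entered 1 fit in edgeR 4.0.16 (R 4.3.3; filterByExpr by group, minimum count 10, TMM, quasi-likelihood F test, group as the sole term, common dispersion 0.178), which was tested on simulated data. The 6 contrasts were adjusted by Benjamini and Hochberg over 15760 genes. CPM uses TMM-scaled library sizes. Libraries of 1 mouse differed by more than sampling noise. Mice are separate animals, so p-values set group differences against the spread between mice. That spread was estimated over all groups together, not for each group alone.

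The members and the 15 other lists (145 symbols, 132 tested) were chosen with earlier results of these data known. From each list up to 3 genes with the smallest p among those that passed, or else the 2 with the highest CPM, could be named. Mrgprb2, Gata2, Fcer1g, Kitl, Il10, Ly6g, S100a8, S100a9, Adgre1, Csf1r, Gata3, Rora, Il13, Klrg1, Itga2, Cd200r3, Prss34, Lat, Plcg1, Plcg2, Cd207 and the mucosal proteases were named outside that rule after their values were seen. Alternatives were DESeq2 1.42.0, limma 3.58.1 voom with the mouse as a random effect, RLE scaling, library size alone, no filter, 1 CPM in 3 mice, libraries as replicates, 1 library per mouse, a replicate block, the growing hair score (mean log2 CPM, prior count 2) or days since induction as a covariate, summed tryptases and leaving out each mouse. The labels give the libraries of healthy mouse 16 ages of 128 and 135 days, which cannot both hold if they are 1 mouse.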

Additional observations from a re-analysis of the deposited data

Results flagged for a closer look

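Among 45 sets of 4 or 5 mice checked (each member's CPM and 5 ratios of counts), 1 held a mouse that stood apart from the rest of its group by Dixon's criterion, where chance alone marks about 1 set in 20. In healthy mouse 10 Tpsab1 counts were 3.61% of Tpsb2 counts, and in the other healthy mice they were 1.72 to 2.21%. Groups of 3 mice, such as AFL with its Hdc level in mouse 11, are too small for the criterion.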

How the results depend on the processing

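Over the 60 member values (10 genes in 6 comparisons), the alternatives gave 1540 values on the same side of the threshold and of 0, 47 that lost a call, 11 that gained one and 52 that changed sign. The count for AFL against BCC, 5, was 3 with days since induction as a covariate and 3 to 5 without single mice. For vismodegib against BCC, 2, it was 1 with library size alone, 1 with summed tryptases and 1 to 4 without single mice. For AFL against vismodegib, 2, it was 1 with summed tryptases and 1 to 3 without single mice, and for BCC against healthy, 1, it was 0 to 2. Tpsab1 kept its calls in all alternatives other than summed tryptases, where the joint row, led by Tpsb2, gave -0.12 for vismodegib against healthy. The other sign changes were in values that had not passed. With the hair score they were Kit in AFL against BCC (0.40), Ms4a2 (-0.40) and Il1rl1 (-0.43) in BCC against healthy, Kit in AFL against vismodegib (0.00038), Mcpt4 (-0.73), Cpa3 (-0.73) and Ms4a2 (-1.44) in AFL against healthy, and Cma1 (-0.25), Mcpt4 (-0.30), Cpa3 (-0.44) and Ms4a2 (-0.77) in vismodegib against healthy. With the libraries as replicates they were Il1rl1 in BCC against healthy (-0.069) and Mcpt4 (-0.14) and Ms4a2 (-0.025) in AFL against healthy; with voom, Il1rl1 in BCC against healthy (-0.0023) and Cpa3 in AFL against vismodegib (0.22); with library size alone, Kit in vismodegib against BCC (-0.067) and Mcpt4 (0.13) and Cpa3 (0.28) in AFL against vismodegib; with days since induction, Ms4a2 in vismodegib against BCC (0.11) and Cpa3 in AFL against vismodegib (0.54). Without single mice the ranges that crossed 0 were -0.60 to 0.28 for Kit in AFL against BCC; -0.17 to 0.27 for Il1rl1, -0.45 to 0.11 for Cpa3 and -0.35 to 0.046 for Hdc in BCC against healthy; -0.43 to 0.29 for Ms4a2 and -0.25 to 0.80 for Kit in vismodegib against BCC; -0.14 to 0.99 for Fcer1a, -0.38 to 0.42 for Cpa3 and -0.50 to 0.16 for Mcpt4 in AFL against vismodegib; -0.0054 to 0.51 for Ms4a2 and -0.13 to 0.57 for Mcpt4 in AFL against healthy; and -0.40 to 0.034 for Tpsb2 in vismodegib against healthy. The causes were not tested.

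Same-numbered mice of different groups had deviations correlated between -0.385 and 0.616. Mice with different numbers were not compared, so whether the replicate numbers mark pairs was not tested. The replicate block gave 5 members in AFL against BCC and also 5 in AFL against healthy, where Cma1 gained a call (1.49, adjusted p = 0.0499, edgeR), and turned Cpa3 (0.20) and Hdc (0.014) in BCC against healthy and Mcpt4 (0.011) and Cpa3 (0.35) in AFL against vismodegib. Library size alone moved the median of all genes from -0.04 to -0.18 in AFL against BCC, from 0.05 to -0.30 in vismodegib against BCC, from -0.06 to 0.16 in AFL against vismodegib and from 0.02 to -0.25 in vismodegib against healthy. DESeq2 called 2001 genes in place of 1221 in AFL against BCC and 936 in place of 445 in BCC against healthy. At this depth Tpsab1 rests on 14 to 53 counts in each mouse of the healthy and BCC groups, which limits its fold changes. Fcer1a rests on 9 to 70 counts in each healthy mouse. That limits its fold changes against healthy skin and its share of Ms4a2 counts there.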
